A study of Drosophila melanogaster with 35 samples.

Results

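The adult head probes are the cDNA clones whose identifier begins with GH or HL, the prefixes that the Drosophila cDNA collections gave to 2 libraries made from adult head RNA. They were picked by identifier alone, with no use of a measured value. Of the 9993 probes on the arrays, 2047 were adult head probes, 1903 with the prefix GH and 144 with HL, and 7946 were other probes. A probe was tested where every group had at least 2 arrays with a value, and 2025 adult head probes met that minimum. A single gene was assigned to 1814 of the 2047 probes, several genes to 66 and none to 167, so that the 1814 probes stood for 1756 genes and some genes were measured more than once.

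The arrays measured DNA adenine methyltransferase identification (DamID) in Kc167 cells, a cell line of embryonic origin. In DamID a chromatin protein is joined to the bacterial enzyme Dam, which methylates adenines near the sites where the protein sits, and the methylated DNA is compared with that of cells holding Dam alone. Each fusion placed the whole protein after Dam and Myc and reached the cells by plasmid transfection, so a group stands for transfected cultures of 1 line, and a plasmid with Dam alone gave the reference. There were 4 arrays each for HP1, HP3, HP4 and HP5, 3 each for Su(var)3-9, HP6 and Jra, 3 each for HP3 in cells depleted of HP1 and in cells depleted of white, and 2 each for HP6 in the same 2 kinds of depleted cells. The labels name the depleted gene but not the method of depletion.

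HP1 binds methylated histone tails and is the best known structural protein of heterochromatin, the compact chromatin around centromeres and on the small chromosome 4. Su(var)3-9 is a histone methyltransferase that places the mark HP1 reads. HP3, HP4, HP5 and HP6 were studied as interaction partners of heterochromatin proteins, Jra is the Drosophila Jun transcription factor and served as the protein outside heterochromatin, and knock-down of white, an eye pigment transporter gene, served as the control knock-down. A clone from a head library marks a gene that was transcribed in the adult head, among them genes of neurons, glia and photoreceptors. Its value here is the protein's contact with that gene in embryonic cells, not in the head. The assay reads genomic DNA, so neither cell type markers nor the loss of HP1 could be checked in it.

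Genes of head and nervous system function made up a larger share of the adult head probes than of the others. Of the single-gene probes, 5.24% carried a gene of 12 head and neuronal lists, namely phototransduction, eye and head development, eye pigment, ion channels and receptors, synaptic vesicle, neuropeptide, axon guidance, learning and memory, clock, chemosensory, glial and neuronal RNA-binding and transcription factor genes. That share was 2.62% among the other probes. Within the members it was 13.4% for HL and 4.66% for GH. Probes with the prefix RH, from another adult head library that the identifier rule does not take, had 5.36%, and testis clones (AT) had 1.49%. On chromosome 4 lay 0.606% of the single-gene adult head probes against 0.743% of the others, and 2.32% against 3.36% were among the 100 genes nearest the centromere on each of 5 arms.

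Values are log ratios of fusion over Dam alone, read here as log2, with each array's median at 0. A probe was called above or below 0 when limma, fitted to all 9934 tested probes and all 35 arrays, gave an adjusted p under 0.05. The highest and lowest genes named below are ranked among probes with a single gene. Whether replicates stem from separate transfections is not given, so a p-value here covers array-to-array spread alone, and that spread may be technical. Arrays were not equally alike over the 2025 adult head probes. HP3 replicate 2 correlated with the mean of the other HP3 arrays at r = 0.0013 and with the mean of every other group at between -0.0372 and 0.0058. HP6 replicate 3 correlated at 0.544 with the other HP6 arrays and at 0.891 with the HP5 mean, 0.859 with the HP4 mean and 0.837 with the HP1 mean. Counts for HP3 and HP6, and the values of several genes, are therefore given with and without these 2 arrays.

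The typical adult head probe lay slightly lower than the typical other probe for most proteins. The median of the adult head probes was below that of the others on 30 of the 35 arrays. The gap was widest for HP5, where it was -0.15, -0.14, -0.20 and -0.14 on the 4 arrays (mean -0.16 ± 0.03 SD, n = 4). For HP3 the 4 differences ran from -0.27 to -0.05 (mean -0.13 ± 0.09) and for HP4 from -0.15 to 0.01 (mean -0.10 ± 0.08). HP4 replicate 4 was thus the one HP4 array on which the members were not lower. HP3 replicate 2 and HP6 replicate 3, the arrays that stand apart, read -0.10 and -0.10, and the other HP3 and HP6 arrays were below 0 as well.

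The gap narrowed or vanished in the remaining groups. The mean difference was -0.08 ± 0.03 for HP6 (n = 3), -0.07 ± 0.04 for Su(var)3-9 (n = 3), and -0.04 ± 0.01 for Jra (n = 3). For HP1 it was 0.04 ± 0.09 (n = 4), with the members lower on 2 of 4 arrays. After knock-down it was -0.06 ± 0.05 for HP3 with HP1 depleted and -0.02 ± 0.02 with white depleted (n = 3 each). For HP6 the members lay lower on 1 of 2 arrays after either knock-down. These shifts were small beside the spread among the members. For HP5 the lower and upper quartiles of the members' means were -0.42 and 0.19, and for HP1 -0.17 and 0.19.

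**Figure D1:**
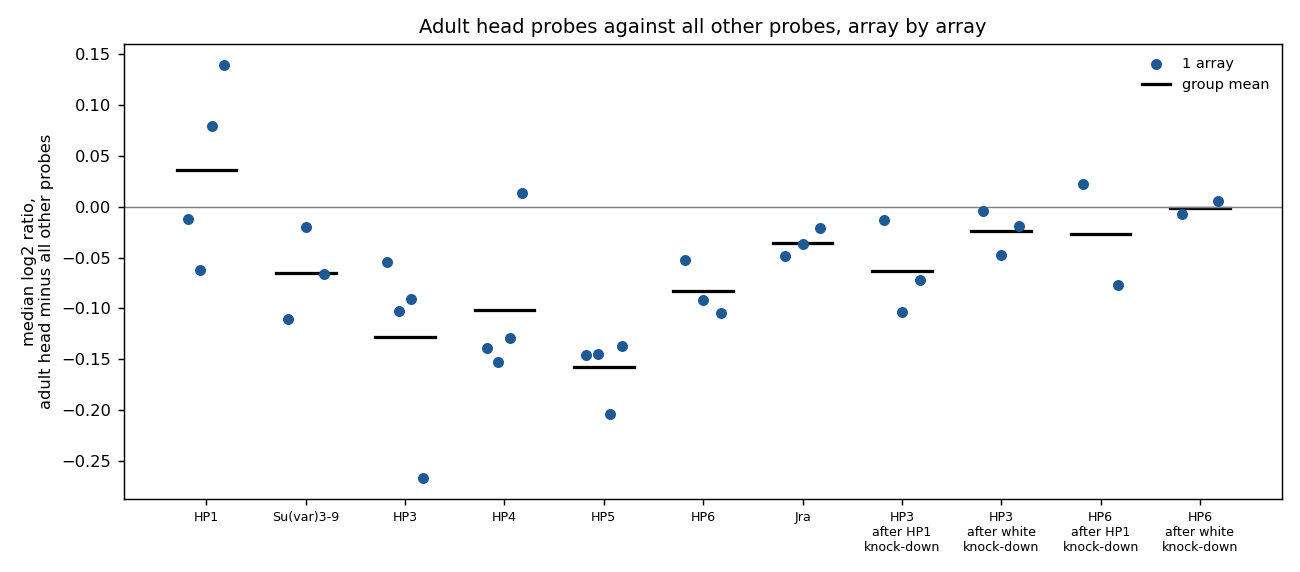
Median log2 ratio of the 2047 adult head probes minus that of the 7946 other probes (vertical axis) in each of the 11 groups (horizontal axis). Each point is 1 array and each bar the group's mean; the points lie below 0 on 30 of 35 arrays, and all 4 HP5 points lie at -0.14 or lower.

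Fewer adult head probes than others lay high for several proteins. For HP1, 5.13% of the adult head probes had a mean above 1 against 5.63% of the others, and for HP5 3.32% against 4.48%. For HP3 the shares were 1.42% and 2.64%, and for HP3 after HP1 knock-down 6.79% and 11%. On untreated HP3 replicate 1, unlike the other untreated HP3 arrays, the share of values above 1 was higher in the members (8.26% against 7.60%). For Jra the shares of means were 4.01% and 3.60%, but the share of values above 1 was higher in the members on replicate 3 alone (3.86% against 3.67%), and lower on replicates 1 (4.25% against 4.83%) and 2 (4.89% against 5.15%).

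Clones from adult heads did not all lie alike. RH probes had a median HP5 mean of 0.40, where GH probes had -0.13 and HL probes 0.0069. The medians of the embryo library LD (-0.20) and of the Schneider cell library SD (-0.19) lay on the side of GH, whereas the other embryo library RE (0.22) and the testis library AT (0.16) lay with RH. The same division held for HP4, with -0.13 for GH, -0.12 for HL, -0.19 for LD and -0.20 for SD against 0.26 for RH, 0.11 for RE and 0.14 for AT. What sets the libraries apart was not tested.

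The calls followed the same division. For HP5, 10.9% of GH and 11.3% of HL probes were called above 0, against 40.6% of RH, 29.4% of RE, 9.53% of LD and 11% of SD probes. For HP4 the shares were 14.8% and 13.4% of the members against 34.2% of RH probes. For HP1 the members, at 8.98% and 7.04%, exceeded RH at 4.77% and stayed below SD at 12.3%.

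**Figure D2:**
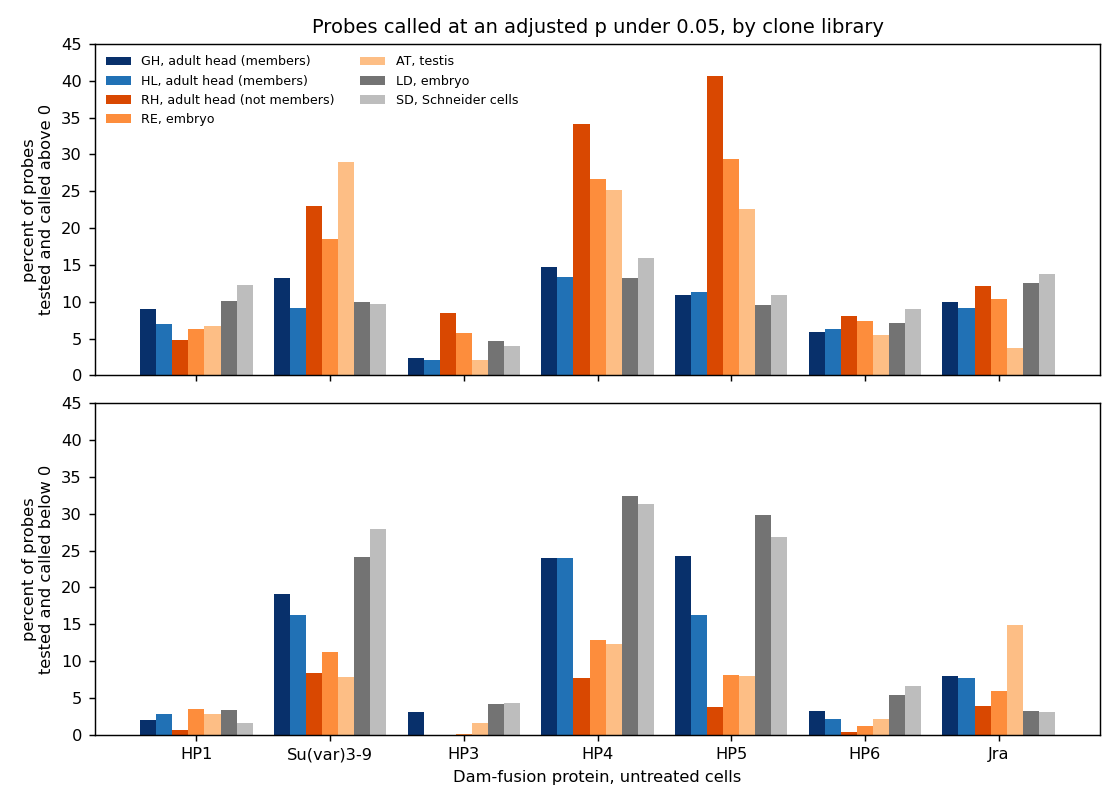
Percent of tested probes called above 0 (top) and below 0 (bottom) at an adjusted p under 0.05 for each of the 7 proteins in untreated cells (horizontal axis), with 1 bar per clone library. For HP5 the member libraries GH and HL stand at 10.9% and 11.3% above 0 and the other head library, RH, at 40.6%.

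A probe from another library was present for 206 of the genes with an adult head probe. Across these genes the 2 probes' HP1 means correlated at r = 0.688, and the r in the other groups ran from 0.236 for HP6 after white knock-down to 0.652 for HP6 in untreated cells. These are values across genes that share their arrays, and genes are not independent replicates. The median difference, adult head minus other probe, was -0.09 for HP5, -0.09 for HP3, -0.07 for HP4 and 0.01 for HP1. Calls above 0 were shared in part. For HP1 both probes were called at 11 genes, 45.8% of the 24 called on the adult head probe and 64.7% of the 17 called on the other.

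Among members with a single gene, HP1 was highest at hob, Gyf and beta-Man. It was called above 0 at 179 of the 2025 adult head probes (8.84%, against 8.48% of all 9934 probes) and below 0 at 41 (2.02%, against 2.95%). GH20809, which carries no single gene, had a mean of 3.56. The highest with a single gene was hob (GH07785, arm 3L), which read 3.42, 4.06, 3.20 and 3.36 on the 4 arrays (mean 3.51 ± 0.38 SD, n = 4, limma adjusted p = 1.84e-08). It is hobbit, a protein needed for regulated secretion. Gyf (GH25014, chromosome 4), a GYF-domain protein, followed at 3.44, 3.84, 2.70 and 2.95 (mean 3.23 ± 0.51). All 4 arrays of both genes stood far above 0.

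The next highest HP1 means among single-gene members belonged to beta-Man (3.19 ± 0.66), a mannosidase, and Atf6 (3.10 ± 0.32), a transcription factor of the endoplasmic reticulum stress response. Then came enok (3.07 ± 0.87), a histone acetyltransferase required in mushroom body neuroblasts, and Dhc64C (3.06 ± 0.99), the cytoplasmic dynein heavy chain, all with n = 4. The lowest called gene was rsh (GH05851_ReAmp), radish, a gene of memory consolidation, at -1.18, -0.17, -1.39 and -1.61 (mean -1.09 ± 0.64, adjusted p = 5.78e-05). It was followed by crim, a Ly6-family protein (-1.09 ± 0.87), and by GluClalpha, a glutamate-gated chloride channel (-1.03 ± 0.52). With only the HP1 arrays fitted, the call for crim was lost (adjusted p = 0.108). The count above 0 was 131 to 179 when 1 HP1 array was left out, and the count below 0 was 10 without replicate 1, 5 without replicate 2 and 80 without replicate 4.

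Su(var)3-9 was called above 0 at 262 members (12.9%, against 15.8% of all probes) and below 0 at 384 (19.0%, against 17.4%). GH20809, which carries no single gene, had a mean of 3.89. Among members with a single gene sei (GH12235) had the highest mean, at 8.01, 1.86 and 0.97 (mean 3.61 ± 3.84 SD, n = 3, adjusted p = 0.000197). It is seizure, an ERG-type potassium channel of neurons. The first array alone set that rank. CG8475 (3.26 ± 0.61), hob (3.19 ± 0.16), toy (GH26083, 3.11 ± 0.19), spab (3.05 ± 1.79) and CG10993 (2.88 ± 0.17) came next, and of these hob, toy and CG10993 varied little between arrays.

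Replicate 1 of Su(var)3-9 also carried the lowest values. CG30389 read -5.30, -0.83 and -0.83, PsGEF, a guanine nucleotide exchange factor, -4.82, -0.89 and -1.10, and CG31445 -5.74, -0.49 and -0.13. CG31445 was no longer called without replicate 1 (estimate -0.31, adjusted p = 0.414), nor when only the Su(var)3-9 arrays were fitted (0.357). In that fit the calls for sei (0.194), spab (0.0644), CG30389 (0.226) and PsGEF (0.180) were lost too. Without replicate 1 the counts were 144 above and 214 below 0, and without replicate 2 the count above 0 was 169.

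HP3 was called above 0 at 48 members (2.37%, against 4.38% of all probes) and below 0 at 58 (2.86%, against 2.31%). Without the 2 arrays that stand apart the counts were 66 and 100, with 41 of the 48 calls above 0 kept. When all arrays were scaled to one spread they were 91 and 268, so the split between higher and lower depended on the scaling. Leaving out replicate 1 gave 28 above and 15 below 0, and leaving out replicate 4 gave 7 below 0.

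The rule for named genes, which asks for a value above 0 on every array, gave Kif3C (GH04118_ReAmp, chromosome 4), a kinesin, at 1.87, 0.28, 2.93 and 2.40 (mean 1.87 ± 1.14 SD, n = 4, adjusted p = 1.17e-05), beta-Man (1.78 ± 1.07), Gyf (1.58 ± 0.75), CG14657 (1.55 ± 0.76), emp, a CD36-family scavenger receptor (1.5 ± 0.86), and hob (1.47 ± 1.01) for HP3. It left out 5 called genes with means above that of Gyf, each only through replicate 2, the array that stands apart, and these were listed after their values were seen. They were CG2736 (3.73, -0.09, 3.67 and 3.68, mean 2.75), toy GH26083 (mean 1.99), CG7135 (1.88), Atf6 (1.88) and MED15, a Mediator subunit (1.75), which read between -0.20 and -0.06 on that array. Without the 2 arrays CG2736 had an estimate of 3.69 (adjusted p = 2.59e-12). Replicate 2 was the lowest array at all of these genes. Kif3C had an estimate of 2.35 without the 2 arrays (adjusted p = 1.87e-10) and emp one of 1.97 (3.41e-06). The lowest were kek4, a leucine-rich repeat transmembrane protein (-1.06 ± 0.64), Mocs2B, a molybdopterin synthase subunit (-0.84 ± 0.19), and Vha26, a proton pump subunit (-0.73 ± 0.30).

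With only the 4 HP3 arrays fitted, limma called 0 adult head probes above and 0 below 0. Leaving out replicate 1, 3 or 4 ended the call for hob (adjusted p = 0.173, 0.0685 and 0.0773) and for Vha26 (0.0568, 0.0649 and 0.149), and leaving out replicate 1 ended that for Mocs2B (0.0632).

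Of the members with a single gene, HP4 was highest at Dhc64C, beta-Man and enok. It was called above 0 at 297 members (14.7%, against 19.7% of all probes) and below 0 at 487 (24.0%, against 21.8%). GH20809, which carries no single gene, had a mean of 3.99. Dhc64C read 4.76, 3.86, 3.76 and 3.23 (mean 3.91 ± 0.64 SD, n = 4, adjusted p = 1.03e-11). beta-Man (3.84 ± 0.80), enok (3.75 ± 0.37), hob (3.60 ± 1.05), toy (3.51 ± 1.01) and Atf6 (3.36 ± 0.83) followed. For hob and toy replicate 2, at 2.03 for each, lay well under the other 3 arrays.

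That same array held the extreme low values. The lowest HP4 genes with a value on every array were glec (GH13232), gliolectin, a carbohydrate-binding protein of the developing nervous system, at -1.58, -3.86, -0.88 and -0.54, Tina-1 at -1.38, -3.73, -0.89 and -0.69, and CG3625 at -1.38, -3.54, -0.95 and -0.62. CG5973, which the rule does not take, lay lower (mean -2.12 over 3 arrays, -4.42 on replicate 2) but had no value on replicate 1. The rule required the first 3 to lie below 0 on every array. None of the 3 was called when only the HP4 arrays were fitted (adjusted p = 0.0709, 0.0772 and 0.0721). That fit called 74 members above and 66 below 0.

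HP5 was called more often below than above 0. It was called above 0 at 222 members (11%, against 18.4% of all probes) and below 0 at 481 (23.8%, against 18.7%). GH26136_ReAmp, which carries no single gene, had a mean of 3.60. The highest with a single gene was toy (GH26083, chromosome 4), with 3.76, 2.83, 3.36 and 3.67 on the 4 arrays (mean 3.40 ± 0.42 SD, n = 4, adjusted p = 1.99e-09). It is twin of eyeless, a Pax6 factor that starts eye development. Atf6 (3.39 ± 0.35), CG10993 (3.19 ± 0.36), Kif3C (3.04 ± 0.25), beta-Man (2.97 ± 0.32) and enok (2.87 ± 0.42) were next, each with all 4 arrays above 2. hob, high for the other proteins, read 3.29, 2.53 and 3.22 for HP5 but -0.08 on replicate 3. The lowest were Rev1, a DNA polymerase that bypasses lesions (-1.68 ± 0.28), kek4 (-1.65 ± 0.25) and vrs (-1.55 ± 0.84). Without replicate 1 the counts were 147 above and 277 below 0.

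HP6 was called above 0 at 119 members (5.88%, against 7.05% of all probes) and below 0 at 65 (3.21%, against 3.33%). Without the 2 arrays that stand apart the counts were 80 and 33, with 61 of the 119 calls above 0 kept. Scaled to one spread, the arrays gave 146 and 153. Among single-gene members the highest was hob at 2.67, 2.50 and 4.50 (mean 3.22 ± 1.11 SD, n = 3, adjusted p = 3.00e-06), followed by enok (3.11 ± 0.96), Dhc64C (3.01 ± 0.67), toy (2.92 ± 0.99) and Atf6 (2.80 ± 1.06). The sixth was chp (HL03177), chaoptin, an adhesion protein found on photoreceptors, at 2.11, 1.87 and 4.04 (mean 2.67 ± 1.19, adjusted p = 3.10e-07).

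Replicate 3 was the highest HP6 array at all 6 genes, and their order was taken with that array. On replicates 1 and 2 the other toy probe, GH14454, read above hob, as given below, but it lay below 0 on replicate 3. The chp estimate was 1.97 without the 2 arrays (adjusted p = 7.92e-05). The lowest HP6 genes were Muc68D, a mucin (-1.09 ± 0.41), yps, a Y-box RNA-binding protein (-1.01 ± 0.31), and CG3104 (-0.98 ± 0.29). Muc68D lost its call without replicate 1 (adjusted p = 0.0834), and CG3104 without replicate 1 (0.169) or replicate 2 (0.125). The counts were 20 below 0 without replicate 2, and 73 above and 23 below without replicate 3.

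Jra was highest at other genes. It was called above 0 at 200 members (9.88%, against 10.8% of all probes) and below 0 at 161 (7.95%, against 6.30%). GATAd (GH03570), a GATA-family factor, read 2.27, 2.08 and 1.44 (mean 1.93 ± 0.43 SD, n = 3, adjusted p = 0.00118). CG15012 (1.86 ± 0.52), CG17472 (1.71 ± 0.16), Nmda1, a glutamate receptor-associated membrane protein (1.71 ± 0.23), CG14933 (1.69 ± 0.39) and Mob2, a kinase-binding protein (1.59 ± 0.39), followed.

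The genes lowest for Jra with a value on all 3 arrays were CG10752 (-1.39 ± 0.24), Mnt, the partner of Max that opposes Myc (-1.28 ± 0.71), and rsh (-1.21 ± 0.31). rsh was thus among the 3 lowest of these genes for both HP1 and Jra. The same rsh probe was called above 0 for Su(var)3-9 and HP5. DIP-gamma, an immunoglobulin-family cell surface protein that the rule leaves out for its missing value, read -2.42 and -1.14 on the 2 arrays that measured it (adjusted p = 0.0298). Without Jra replicate 1 the counts were 111 above and 52 below 0, and without replicate 2 they were 99 and 38.

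CG14933 and GATAd showed further where the 2 arrays depart. CG14933 (GH06380) read 2.23 and 1.97 on HP6 replicates 1 and 2 and -0.78 on replicate 3, while the 4 HP6 arrays after knock-down read 1.83, 1.83, 2.17 and 1.87. GATAd read 3.83 on HP3 replicate 2 and 0.20, 0.03 and -0.13 on the other 3. In both genes the array that stands apart was on the far side of all others of its protein.

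A smaller share of adult head probes than of others was called above 0 for at least 1 of the 6 heterochromatin proteins. The shares were 24.5% and 33.8%. For HP1 taken singly the members had the larger share, 8.84% against 8.38%. None of the 6 was called above 0 at 1528 members (75.5%, against 66.2% of the other tested probes), exactly 1 at 237 (11.7%, against 14.2%) and all 6 at 27 (1.33%, against 2.31%). Without the 2 arrays all 6 were called at 33, of which 24 were in both sets. Of the 27, 19 carried a single gene, of which 3 lay on chromosome 4 (toy, Kif3C and Gyf) and 4 near a centromere (Atf6, beta-Man, Scp1 and CG14657). Jra was called above 0 at 0 of the 27, and it was called so at 9.88% of all tested members.

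toy had the highest mean over the 6 proteins among the 19 genes, 2.99, ahead of hob (2.87), Atf6 (2.87), beta-Man (2.78), enok (2.76) and Dhc64C (2.75). Besides toy and chp, the 19 held Ir93a (GH01149), an ionotropic receptor of antennal humidity and temperature sensing, named after its values were seen. Its means were 1.31 for HP1, 1.63 for HP5, 0.90 for HP3 and 0.89 for HP6. After white knock-down, the control, the Ir93a means were only 0.27 for HP3 and 0.02 for HP6. The 3 highest of the 27 probes, with means over the 6 proteins of 3.17, 3.17 and 2.99, carried no single gene.

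On chromosome 4, HP1 was called above 0 at 8 of 11 adult head probes and at 35 of 50 others. HP6 was called at 7 of 11 and 34 of 50, HP4 at 7 of 11 and 33 of 50, Su(var)3-9 at 5 of 11 and 33 of 50, HP5 at 5 of 11 and 36 of 50, and HP3 at 3 of 11 and 26 of 50. Jra was called at 0 of 11 and 0 of 50. Near the centromeres HP1 was called at 12 of 42 adult head probes and 98 of 231 others, and HP5 at 11 of 42 and 92 of 231.

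The 2 adult head probes of toy did not agree. GH26083 was above 2 on every array of the 6 heterochromatin proteins apart from HP3 replicate 2, where it read -0.20. GH14454 read 1.07, 0.81, 1.12 and 0.82 for HP1 (mean 0.96 ± 0.16 SD, n = 4) and -0.59, -0.77 and -0.69 for Su(var)3-9 (mean -0.68 ± 0.09, n = 3). For HP4 its mean was -0.41 ± 0.55 and for HP5 -0.61 ± 0.47.

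HP6 was the protein at which GH14454 stood high. It read 3.15 and 2.75 on HP6 replicates 1 and 2, -0.11 on replicate 3, 3.19 and 3.28 after white knock-down, and 2.52 and 2.83 after HP1 knock-down. All 6 HP6 arrays other than replicate 3 were thus above 2.5. Without the 2 arrays that stand apart GH14454 was called too, with an estimate of 3.02 in place of 1.92 (adjusted p = 0.000129 with them). The HP1 call (0.0247) was lost without HP1 replicate 1 (0.102), 2 (0.0839) or 3 (0.0926).

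**Figure D3:**
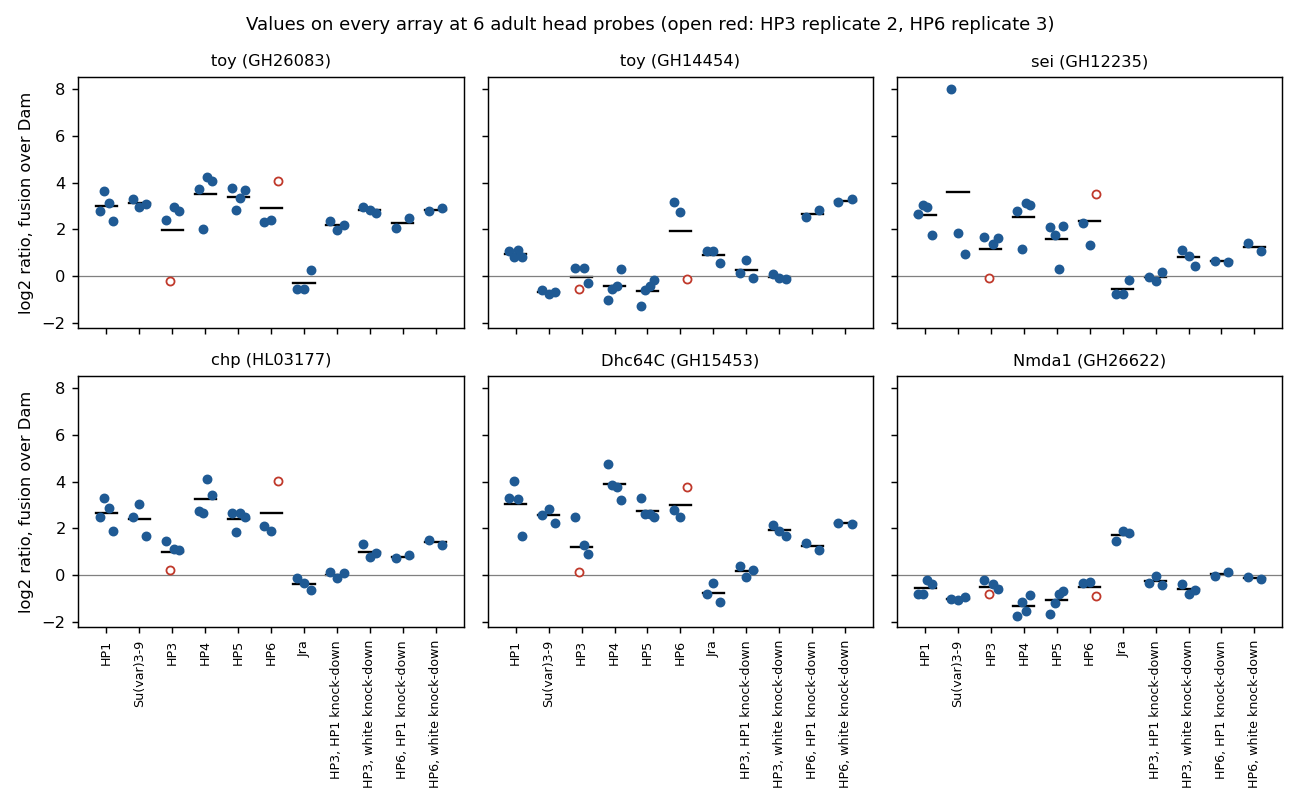
Log2 ratio of fusion over Dam (vertical axis) on each of the 35 arrays at 6 adult head probes, grouped by protein and knock-down (horizontal axis). Points are arrays, bars are group means, and open red points are HP3 replicate 2 and HP6 replicate 3; at toy GH14454 every HP6 array but the open one lies above 2.5, and at sei 1 Su(var)3-9 array reads 8.01.

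Most probes of the head and neuronal lists were called above 0 for none of the 7 proteins. Of the 424 genes in the 12 lists, 227 were on the array and 89 had an adult head probe, with 95 probes of which 93 were tested (SK, a potassium channel, and Rbp9, an RNA-binding protein, each had 1 probe that was not). No protein was called above 0 at 73 of the 93, at least 1 heterochromatin protein was called at 15, all 6 at 1, and Jra at 5. The 12 lists do not hold every such gene, and chp, Ir93a and rsh, named above, are in none of them. No protein was called above 0 at 58.9% of all 9934 tested probes and at 66.8% of the 2025 tested members. At least 1 heterochromatin protein was called above 0 at 31.95% of all tested probes and at 24.5% of the tested members. Among the list probes the shares were 78.5% for no protein and 16.1% for at least 1 heterochromatin protein. HP1 was called above 0 at 5 and below at 4, Su(var)3-9 at 8 and 6, HP3 at 1 and 0, HP4 at 9 and 15, HP5 at 5 and 12, HP6 at 3 and 3, and Jra at 5 and 13. Over all 9934 probes the shares above and below 0 were 8.48% and 2.95% for HP1, 15.8% and 17.4% for Su(var)3-9, 4.38% and 2.31% for HP3, 19.7% and 21.8% for HP4, 18.4% and 18.7% for HP5, 7.05% and 3.33% for HP6, and 10.8% and 6.30% for Jra. The median estimate of the list probes was 0.05 for HP1, where all tested members had 0.01, -0.13 for HP4, where they also had -0.13, and -0.20 for Jra, where they had -0.04.

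Of the receptors and channels, sei was called for 5 proteins. It read 2.67, 3.02, 2.95 and 1.77 for HP1 (mean 2.60 ± 0.58 SD, n = 4, adjusted p = 0.00189) and 2.80, 1.18, 3.15 and 3.06 for HP4 (mean 2.55 ± 0.92, 0.00104). For HP6 it read 2.25, 1.33 and 3.49 (mean 2.36 ± 1.09, n = 3, 0.0230), a call lost without the 2 arrays that stand apart (estimate 1.60, adjusted p = 0.315) and without HP6 replicate 1 (0.0703). For HP5 it read 2.10, 1.77, 0.30 and 2.13 (0.0346), a call lost without replicate 1 (0.140), 2 (0.103) or 4 (0.123). nAChRbeta1, a nicotinic acetylcholine receptor subunit, had small positive means of 0.52 for Su(var)3-9, 0.39 for HP4 and 0.50 for HP5, all called, the last not without HP5 replicate 2 (adjusted p = 0.137). The next genes named in these lists beyond the 4 highest per protein were picked after their values were seen, namely Ca-beta, santa-maria, Ilp2 and nrv2. GluClalpha and Ca-beta, a calcium channel subunit, were called below 0 for HP1, at -1.03 and -0.91. Jra was called below 0 at 6 of the 20 tested channel and receptor probes, against 6.30% of all probes.

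Among axon guidance and adhesion genes the calls were weaker. Con, connectin, read 2.32, 0.45 and 0.24 for Su(var)3-9 (mean 1.00 ± 1.15) and 0.52, 0.54, 0.57 and 0.55 for HP5 (mean 0.54 ± 0.02). The Su(var)3-9 call for Con (adjusted p = 0.00289) was lost without replicate 1 (0.30), as was that for trn, tartan (mean 0.87 ± 1.04, 0.446 without replicate 1). The HP5 call for Con (0.0487) was lost whichever HP5 array was left out (0.0997 to 0.118). bdl, an immunoglobulin-family protein, read 0.02, 2.01, 0.32 and 0.45 for HP4, and its call was lost without replicate 2 (0.0754). Ptp99A, a receptor tyrosine phosphatase of motor axons, had a mean of 0.53 ± 0.21 for HP1 (adjusted p = 0.0067), lost without replicate 3 (0.0961) and with only the HP1 arrays fitted (0.171). The calls lost in the fits of 1 protein's arrays also included those for Con (0.234) and trn (0.250) for Su(var)3-9 and bdl for HP4 (0.251).

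In the eye lists, boss, the ligand of sevenless in photoreceptor fate, read 1.08, 1.40, 0.16 and 0.28 for HP4 (mean 0.73 ± 0.60, adjusted p = 0.00019), a call lost with only the HP4 arrays fitted (0.0663). santa-maria, a scavenger receptor of the visual pigment pathway, had a mean of 0.84 for Su(var)3-9. Of the 13 tested phototransduction probes, HP1 was called at 0 in either direction, HP4 above 0 at 0 and below at 2, and Jra at 1 and 2. The shares over all probes given above apply to these counts too, and 13 probes are few to set against them. Among the neuropeptides, Ilp2, an insulin-like peptide of brain neurosecretory cells, was called for Su(var)3-9 (mean 0.55), HP4 (0.55) and HP5 (0.36) and lay below 0 for Jra (-0.74).

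Jra was called above 0 at 5 list probes. pinta, a retinoid-binding protein of the eye, read 1.05, 1.32 and 0.87 (mean 1.08 ± 0.23 SD, n = 3, adjusted p = 0.00352), and was called below 0 for Su(var)3-9 (-0.90 ± 0.05), HP4 (-0.75 ± 0.72) and HP5 (-0.83 ± 0.38). for, foraging, a cGMP-dependent kinase of feeding behaviour, read 0.69, 0.86 and 1.04 (mean 0.86 ± 0.17, 0.00134). CG6126 (0.85 ± 0.19), Vmat, the vesicular monoamine transporter (0.75 ± 0.43), and nrv2, a sodium pump subunit (mean 0.61), made up the rest. None of the 5 was called above 0 for a heterochromatin protein. Leaving out 1 Jra array ended the call for pinta (replicate 2, 0.0639), for Vmat (replicate 3, 0.0657) and for CG6126 (any of the 3, 0.0556 to 0.117).

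**Figure D4:**
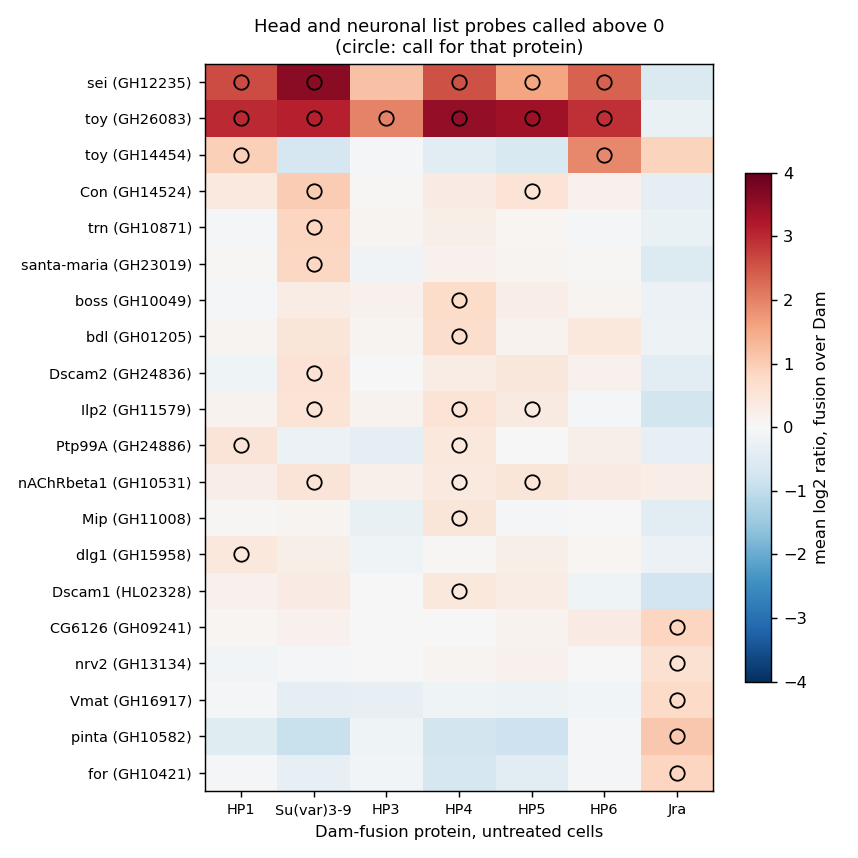
Mean log2 ratio of fusion over Dam (colour scale) for the 7 proteins in untreated cells (columns) at the 20 adult head probes of the head and neuronal lists that were called above 0 for at least 1 of them (rows, ordered by the highest heterochromatin protein mean). Circles mark the calls; toy GH26083 has all 6 heterochromatin proteins, sei has 5, and the bottom 5 rows have Jra alone. The height of the sei mean for Su(var)3-9 was set by 1 array, and the other arrays also lay above 0.

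HP3 after knock-down of HP1 was set against HP3 after white knock-down. limma called 117 members higher (5.78%, against 7.43% of all probes) and 3 lower (0.148%, against 0.443%). With only the arrays compared in the fit, 276 were called higher and 101 lower. The whole set of 2025 was nearer to balance, with a median change of -0.07. The arrays of the 2 knock-downs lay apart without overlap at 381 members where HP1 depletion was higher (against 23.5% of all probes) and at 340 where it was lower (against 18.5%). Dhc64C fell most, from 2.15, 1.91 and 1.68 after white knock-down to 0.38, -0.08 and 0.24 after HP1 knock-down (difference -1.73, adjusted p = 0.0142). cyst (GH26723) went from 1.96, 2.04 and 1.55 to 0.37, 0.15 and 0.53 (-1.5, 0.0385). rsh went from 0.72, 0.49 and 0.28 to -0.70, -0.79 and -0.27 (-1.09, 0.0229). The naming rule took only genes whose 2 sets of arrays did not overlap, so that holds for all 3 by choice.

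Those 3 calls rested on few arrays. Without HP1 knock-down replicate 2 no member was called lower, and likewise without white knock-down replicate 1, while without the 2 arrays that stand apart 9 were. The adjusted p of Dhc64C was 0.0971 without HP1 knock-down replicate 2, 0.0531 without white knock-down replicate 1 and 0.0729 without its replicate 2. That of cyst was above 0.05 in 5 of the 6 fits that left out 1 of these arrays (0.0722 to 0.263), and that of rsh in 4 (0.0771 to 0.174). The count called higher was 77 without HP1 knock-down replicate 1, 28 without its replicate 2, and 48 and 63 without white knock-down replicates 2 and 3.

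CG7506 and maf-S rose most. CG7506 (GH02466) went from -0.02, -0.37 and -0.22 after white knock-down to 2.18, 3.01 and 1.82 after HP1 knock-down (difference 2.54, adjusted p = 9.60e-06). maf-S, a small Maf transcription factor, went from 0.83, 0.98 and 0.56 to 2.82, 3.36 and 2.75 (2.19, 2.90e-06). Gk1, a glycerol kinase (1.96), Pfdn6, a prefoldin subunit (1.94), PSMG1, a proteasome assembly chaperone (1.85), and caly, calypso, the Polycomb-group ubiquitin hydrolase (1.79), came next.

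All HP1 knock-down arrays lay above all white knock-down arrays at each of these 6, which the naming rule required. Pfdn6 lost its call without HP1 knock-down replicate 2 (adjusted p = 0.0654) or white knock-down replicate 2 (0.0578). Of the 117 probes called higher, 98 had a single gene, 2 lay on chromosome 4 or near a centromere and 0 were in the head and neuronal lists, which hold 5.24% of the single-gene members. HP1 in untreated cells was called above 0 at 3 of the 117 (2.56%), and at 8.84% of all tested members. The 28 also called above 0 for Jra were 23.9% of the 117, and 9.88% of all tested members had that call.

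At the 27 members called for all 6 heterochromatin proteins the HP3 median was 2.32 after white and 1.45 after HP1 knock-down, with a median change of -0.84, against -0.07 for all tested members. The HP1 knock-down arrays lay below all white knock-down arrays at 20 of the 27, against 18.5% of all probes. They lay above all white knock-down arrays at 1, against 23.5%. Of the 20, 2 passed the test. The untreated HP3 arrays helped choose these probes. No knock-down mean entered the choice, but the knock-down arrays shared in the estimate of spread behind the calls. The choice was thus not fully independent of them. The untreated and the knock-down arrays are both compared with Dam alone.

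The 19 single genes among them were also described by place. At the 7 on chromosome 4 or near a centromere the median HP3 change was -0.78, with a range of -1.13 to -0.10. At the 12 on the other arms it was -1.07, with a range of -1.73 to 0.03. The ranges overlapped, and the difference between the 2 sets of genes was not tested. toy went from 2.97, 2.83 and 2.68 to 2.36, 1.98 and 2.18 (difference -0.65, adjusted p = 0.571), and Kif3C from 2.62, 2.50 and 2.25 to 1.91, 1.92 and 1.59 (-0.65, 0.438). hob went from 1.71, 1.74 and 1.07 to -0.12, 0.27 and 0.10 (-1.42, 0.192), enok from 2.11, 1.83 and 1.76 to 0.61, 0.17 and 0.57 (-1.45, 0.106) and chp from 1.31, 0.79 and 0.93 to 0.13, -0.14 and 0.08 (-0.99, 0.200). The sets of arrays did not overlap in any of these 5 genes, and none passed the test. On the other arms CG7135 (2.71 after white and 2.70 after HP1 knock-down) and CG8728 (1.47 and 1.49), named after their values were seen, had means that differed little.

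For HP6 no adult head probe passed the test between the knock-downs, with 2 arrays each. limma called 0 members higher and 0 lower, against 0% and 0.0201% of all probes. At an unadjusted p under 0.05 there were 19 higher and 18 lower of 2025. These are fewer than such a cut passes by chance alone, and the share over all probes was not taken. The lowest p-values belonged to Atx2, ataxin-2, an RNA-binding protein (3.85 and 0.46 after white knock-down, -0.59 and 0.29 after HP1 knock-down, adjusted p = 0.584), eya, an eye determination factor (0.89 and 0.73 against -0.15 and -0.24), and Moca-cyp, a cyclophilin (1.13 and 0.63 against -0.74 and 0.00). Higher with HP1 depleted were CRMP, a protein of axon guidance signalling (-8.33 and 1.23 after white knock-down, 0.65 and 0.66 after HP1 knock-down), Rca1, a cell cycle regulator (-0.23 and -1.21 against 0.26 and 0.50), and RanBPM, a Ran-binding scaffold protein (-3.66 and 0.07 against 0.18 and -0.25).

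White knock-down replicate 1 decided 3 of these. Without it the CRMP difference was -0.31 and the RanBPM difference -0.11, both of the opposite sign. Without replicate 2 in its place, 7 members were called higher and 3 lower, among them CRMP (8.73, adjusted p = 7.44e-11), RanBPM (3.63, 1.06e-06) and Atx2 (-3.88, 6.74e-05). With replicate 1 left out 3 were called higher, and without HP1 knock-down replicate 2, 1 was called higher and 1 lower.

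At the 27 members called for all 6 proteins the HP6 median was 1.83 after white and 1.35 after HP1 knock-down. The median change per probe was -0.26, against -0.02 for all tested members. The arrays of HP1 knock-down were lower without overlap at 15 of 27, against 18.0% of all probes, and higher at 5, against 22.2%. limma called 0 of them. hob read 2.19 and 2.56 after white knock-down and 0.80 and 1.18 after HP1 knock-down (difference -1.39), whereas Gyf read 2.29 and 2.27, then 2.68 and 2.73 (0.42). The test of the difference between the HP3 and the HP6 change called 0 members in either direction, against 0% of all probes. At an unadjusted p under 0.05 there were 66 higher and 12 lower of 2025, again fewer than such a cut passes by chance alone. With only the arrays compared in the fit the test called 19 higher and 1 lower, and with the arrays scaled to one spread 2 and 1. Without HP6 white knock-down replicate 2 it called 1 higher and 6 lower, so whether any adult head probe differed depended on the fit.

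**Figure D5:**
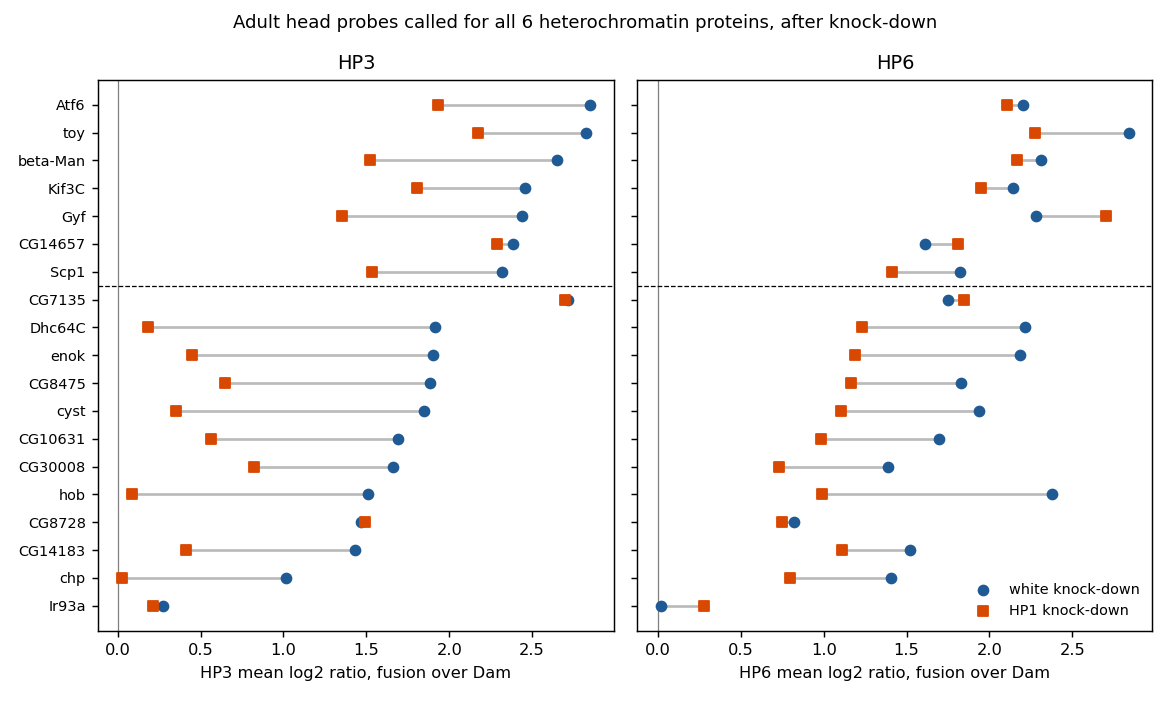
Mean log2 ratio of HP3 (left, n = 3 arrays per knock-down) and HP6 (right, n = 2) over Dam (horizontal axes) after white knock-down (blue circles) and HP1 knock-down (orange squares) at the 19 single-gene adult head probes called for all 6 heterochromatin proteins. The 7 genes above the dashed line lie on chromosome 4 or near a centromere; below it, HP3 at Dhc64C falls from 1.91 to 0.18 and the hob means are 1.51 and 0.08.

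HP3 and HP6 were also tested against 0 after each knock-down. HP3 was called above 0 at 323 members with HP1 depleted (16.0%, against 19.8% of all probes) and at 108 with white depleted (5.33%, against 7.35%), and below 0 at 175 (8.64%, against 8.04%) and 61 (3.01%, against 2.88%). HP6 was called above 0 at 61 (3.01%, against 4.63%) and 68 (3.36%, against 4.21%), and below 0 at 15 (0.741%, against 0.674%) and 14 (0.691%, against 0.765%). With the arrays scaled to one spread the splits were 237 above and 226 below for HP3 with white depleted, and 191 and 101, and 191 and 132, for the 2 HP6 groups. These counts fell when 1 array was left out, to 173 above and 66 to 93 below for HP3 with HP1 depleted without its replicate 2 and without each of its 3 arrays, and to 46 and 71 above, without replicates 1 and 3, and 13 to 15 below for HP3 with white depleted. For HP6 they fell to 10 above and 2 to 4 below with HP1 depleted, and to 9 and 31 above and 4 below, the last without replicate 1, with white depleted.

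The mean of the 6 heterochromatin proteins was set against Jra in 1 contrast. It was higher at 307 members (15.2%, against 16.9% of all probes) and lower at 406 (20.0%, against 19.1%). GH20809, which carries no single gene, had a mean of 3.17 over the 6 proteins and -1.53 for Jra. Of the members with a single gene hob had the greatest difference (3.71, limma adjusted p = 4.40e-07), followed by Dhc64C (3.54), beta-Man (3.47), Gyf (3.32), Atf6 (3.22) and toy (3.19). The lowest was Nmda1, at 1.45, 1.87 and 1.81 for Jra and between -1.74 and -0.83 for HP4 (difference -2.54, adjusted p = 1.31e-10). vsg (-2.33), Chmp1, an endosomal sorting protein (-2.31), CG15012 (-2.23), egh, a glycosyltransferase (-2.11), and CtBP, a transcriptional corepressor (-2.07), were next. Of the 93 list probes 16 were higher and 9 lower. Without Jra replicate 1 the count higher was 145 and without replicate 2 it was 158.

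Of the named genes, 13 had 1 or more further probes on the array, toy among them. Atf6 was also measured by an embryo clone, which read 3.25 for HP1, 2.64 for Su(var)3-9 and 2.90 for HP4, close to the adult head probe. The second probe of CG14657, an embryo clone, read -0.32 for HP1 and -1.29 for HP4 where the adult head probe read 1.90 and 2.53. CRMP's embryo clone read 1.92 for HP1 and 3.05 for HP4, and 1.32 for HP6 after white knock-down, where the adult head probe read -8.33 on replicate 1 and 1.23 on replicate 2. for had 2 further clones, with Jra means of 0.21 and 0.80.

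Other pairs of probes differed as well. The second clone of PsGEF read -0.16 for Su(var)3-9 where the adult head probe had a mean of -2.27, and that of Rev1 read -0.62 for HP5 against -1.68. For HP6 the second clone of eya went from -0.50 after white knock-down to 0.11 after HP1 knock-down, the opposite direction to the adult head probe. The second adult head clone of bdl had a mean of 0.05 for HP4, where the first had 0.70. The second clone of CG30389, from the HL library, read -0.81 for Su(var)3-9, close to replicates 2 and 3 of the first. The second clone of Atx2 read 0.31 for HP6 after white and 0.36 after HP1 knock-down, where the first read 3.85 on replicate 1. The second clone of Mob2 read 0.64 for Jra against 1.59, and for HP6 that of RanBPM read -0.14 after white and 0.03 after HP1 knock-down.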

How the data were processed

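Genomic DNA of DamID experiments was hybridised to 35 two-colour cDNA arrays of 9993 probes in 11 groups. Per the series' design text, each deposited value is the log of the fusion signal divided by that of Dam alone. The authors had centred each array, since the medians ran from -0.00017 to 0.00027. The base of the logarithm is not stated and the values were read as log2, as deposited. How arrays were scanned, corrected for background and normalized is not given in the sources. The files hold no signal over background, and 434 values were missing, 109 of them in adult head probes.

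All arrays entered 1 limma 3.58.1 fit (R 4.3.3) with a mean per group and a dye term, after centring each array on its median. A probe needed 2 arrays with a value in every group, which left out 59 of the 9993. Adjusted p-values are Benjamini-Hochberg over the 9934 tested probes, with a threshold of 0.05. The dye term passed for 65 probes. On data simulated with changes of 1 and 2 in log2 the fit was tested first. The knock-down comparisons set HP1 against white, for HP3, for HP6 and for the difference between them.

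Genes came from the platform annotation, with names, chromosomes and gene order from RefSeq Release 6. Of the probes with 1 gene, 8539 were matched by identifier, 134 by symbol and 9 not at all. A gene is called near a centromere when it is among the 100 nearest on 1 of 5 arms. Probe sequences were not used here.

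For each protein the 6 highest called members above 0 on every array, the 3 lowest called below 0 on every array and the 4 highest of the lists are named. For contrasts the 6 furthest each way that passed are named. In the knock-down contrasts these also had to have arrays that do not overlap. Where fewer than 3 met this, the 3 lowest p-values are named. The rule admits only probes with a single gene. The members, the lists and this rule were chosen with earlier results of these data known, and 1 symbol was removed from the lists after the values were seen, because it matched another gene. Alternatives were a fit without centring, without the dye term, with arrays scaled to one spread, with complete probes only, with the replicate number as a block, with only the arrays compared, without HP3 replicate 2 and HP6 replicate 3, and with each array left out in turn.

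Same-numbered arrays were not treated as pairs in the main fit, and the correlations do not settle whether they are. Over 152 same-numbered pairs, deviations from the group means correlated at -0.303 to 0.608 (median -0.0027), with 34 pairs over 0.1. The median over 402 pairs with different numbers was -0.0032.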

Additional observations from a re-analysis of the deposited data

Results flagged for a closer look

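In groups of 4 arrays the gap between the most extreme array and its neighbour was set against the group's range, with Dixon's critical value of 0.829 as the limit. Of 60 groups examined 5 passed it, where chance passes about 1 in 20. The difference between the medians of adult head and other probes was 0.01 on HP4 replicate 4 and -0.13 to -0.15 on the other HP4 arrays (gap over range 0.857). For HP5 it was -0.20 on replicate 3 and -0.14 to -0.15 elsewhere (0.867). enok read 3.20 for HP4 on replicate 4 and 3.90 to 3.96 on the others (0.923), and 3.50 for HP5 on replicate 1 against 2.61 to 2.70 (0.896). hob read 2.03 for HP4 on replicate 2 and 4.00 to 4.26 on the others (0.883). Groups of 3 or fewer were not examined, so the Su(var)3-9 value of 8.01 at sei and the HP6 value of -8.33 at CRMP lie outside this scan.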

How the results depend on the processing

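Of 1434 repeats of the results for named genes, 1354 kept direction and side of the threshold, 75 lost the call, 3 gained one and 2 changed sign. The causes were not tested. The 2 were CRMP (-0.31) and RanBPM (-0.11) for HP6 without white knock-down replicate 1; without replicate 2 they were 8.73 and 3.63, and Atx2 was -3.88. Counts of adult head probes moved by over 1.5 times as follows. With only the arrays compared, counts above and below 0 were 115 and 2 for HP1, 0 and 0 for HP3, 74 and 66 for HP4, 437 and 500 for Jra, 521 and 571 for HP3 after HP1 knock-down and 288 and 364 after white knock-down, and HP6 had 150 below. In that fit the knock-down contrast gave 276 higher and 101 lower for HP3, 1 and 1 for HP6, and 19 and 1 for their difference, while the HP6 knock-down groups could not be fitted singly. With arrays scaled to one spread, HP1 had 80 below, HP3 91 above and 268 below, HP6 153 below, HP3 after white knock-down 237 and 226, and HP6 191 and 101 after HP1 and 191 and 132 after white knock-down. The contrasts then gave 9 lower for HP3, 1 higher for HP6, and 2 and 1 for their difference. Without the 2 arrays that stand apart, HP3 had 100 below, HP6 33 below and 101 above after HP1 knock-down, and the HP3 contrast 9 lower.

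The main fit did not treat arrays with the same replicate number as pairs, and whether they are pairs is not settled. With the replicate block HP6 had 38 below, HP3 after white knock-down 39, HP6 after HP1 knock-down 6 and after white knock-down 5, and the HP3 contrast 5 lower. With its deviations 20 of 35 arrays correlated best with their own number, and 14 of 35 after the dye effect was removed. The block ended 1 named call, CG3104 for HP6 (adjusted p = 0.0624).

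With 1 array left out, counts ranged over 131 to 179 above and 5 to 80 below for HP1, 144 to 183 and 214 to 279 for Su(var)3-9, 28 to 56 and 7 to 83 for HP3, 243 to 275 and 382 to 510 for HP4, 147 to 210 and 277 to 437 for HP5, 73 to 107 and 20 to 50 for HP6, and 99 to 154 and 38 to 145 for Jra. After HP1 knock-down they were 173 to 287 and 66 to 93 for HP3, and 10 and 2 to 4 for HP6. After white knock-down they were 46 to 84 and 13 to 15 for HP3, and 9 to 31 and 4 to 10 for HP6. The contrasts gave 28 to 119 higher and 0 to 4 lower for HP3, 0 to 7 and 0 to 3 for HP6, 0 to 1 and 0 to 6 for their difference, and 145 to 381 and 289 to 455 against Jra. A group left with 1 array is assumed to vary like the others. The number of arrays limits the precision.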
